A study of Mus musculus with 56 samples.

Results

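Keratin genes and keratin-associated protein genes (Krtap) were followed in the front paws of mice with collagen-induced arthritis (CIA). The 105 members were taken by symbol, as every row named Krt followed by a number or Krtap with a mean of at least 1 FPKM over all libraries, out of 53431 features. FPKM stands for fragments per kilobase of transcript and M fragments, with M for mega, so it compares levels between genes per length. Of 112 rows with such names that are not pseudogenes, 7 fell under the minimum. The lowest members inside it were Krt7 at a mean of 1.16 FPKM, Krt74 at 1.37 and Krtap20-2 at 2.38, and the highest rows outside it were Krt12 at 0.989, Krt4 at 0.596 and Krt20 at 0.330. The members fall into an epidermal class of 4 genes (Krt1, Krt5, Krt10 and Krt14), a stress class of 4 (Krt6a, Krt6b, Krt16 and Krt17), a hair class of 70 (12 hair keratins and 58 Krtap genes) and 27 keratins in none of these. Krt85 was not analysed here.

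All 56 mice were male DBA/1, and 1 library was sequenced from the front paws of each. Arthritis was induced with chicken type II collagen on days 1 and 21. From day 21, and for 5 weeks, the 4 groups of 13 immunised mice were injected with antibody 2 times a week. They are called the arthritic groups, but the sample labels used here give no arthritis score per mouse. The antibodies were an IgG1 isotype control at 30 mg/kg, the TNF antibody XT3.11 at 30 mg/kg (anti-TNF) or the IL-6 antibody MP5-20F3 at 10 mg/kg (anti-IL-6). The combination group received the TNF and IL-6 antibodies together at these doses. A last group of 4 mice had neither arthritis nor antibody (no CIA). The paws were sampled for RNA on day 91, when dosing was over. The labels give no age.

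Keratins form the intermediate filaments of epithelial cells, always as a type I protein paired with a type II protein. Basal keratinocytes make Krt5 with Krt14 and switch to Krt1 with Krt10 as they leave the basal layer. Krt6a, Krt6b, Krt16 and Krt17 are kept in hair follicles, nails and footpads and are induced in epidermis by wounding and inflammation. Hair keratins and Krtap proteins, the cross-linked matrix around them, build the hair shaft and claw, and hair follicles make them during the growth phase of the hair cycle.

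The members sit in the known clusters. On GENCODE M21 (GRCm38), 46 lie on chromosome 11 (23 type I keratins and 23 Krtap genes), 24 keratins on chromosome 15, 25 Krtap genes on chromosome 16, 5 on chromosome 7, 3 on chromosome 10 and 2 on chromosome 1. RefSeq promoters of 300 bases (250 before to 50 after the start, GRCm38.p6) matched 58 of the 70 hair class members. The motif TATAAA, the core of the TATA box, was found on either strand in 47 of these 58 (81.03%) and in 13.6% of all 32851 promoters of this length. On the gene's own strand with its first base 20 to 40 bases before the start, it was found in 34 of 58 (58.6%) and in 1.99% of all promoters. A match is a description of the letters and not of a bound site.

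The 250 bases before the start are shown for 4 hair class genes with high levels and for Krt36 and Krt84, the keratins whose levels followed the rest of the class least. Capitals mark the TATA box core TATAAA, the homeobox motif TTTATNG, the LEF1 motif CTTTGA and the AP-1 motif TGANTCA on either strand. A homeobox match can overlap a TATA box match read on the opposite strand. All 6 genes lie on the minus strand, and the sequences run 5′ to 3′ along the gene. The intervals are chr11:100050552-100050801 for Krt31, chr11:100041555-100041804 for Krt34, chr16:89487953-89488202 for Krtap8-1, chr11:99566631-99566880 for Krtap3-1, chr11:100105627-100105876 for Krt36 and chr15:101532821-101533070 for Krt84.
Krt31: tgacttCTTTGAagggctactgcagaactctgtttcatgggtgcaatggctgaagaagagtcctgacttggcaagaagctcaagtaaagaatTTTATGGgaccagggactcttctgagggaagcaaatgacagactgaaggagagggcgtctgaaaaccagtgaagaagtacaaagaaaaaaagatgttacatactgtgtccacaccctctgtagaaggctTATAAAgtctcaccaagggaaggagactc
Krt34: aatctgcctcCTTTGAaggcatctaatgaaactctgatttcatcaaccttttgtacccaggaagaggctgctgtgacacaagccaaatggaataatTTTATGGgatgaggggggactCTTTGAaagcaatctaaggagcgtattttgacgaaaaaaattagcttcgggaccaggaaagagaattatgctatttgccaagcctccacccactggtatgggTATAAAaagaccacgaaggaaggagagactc
Krtap8-1: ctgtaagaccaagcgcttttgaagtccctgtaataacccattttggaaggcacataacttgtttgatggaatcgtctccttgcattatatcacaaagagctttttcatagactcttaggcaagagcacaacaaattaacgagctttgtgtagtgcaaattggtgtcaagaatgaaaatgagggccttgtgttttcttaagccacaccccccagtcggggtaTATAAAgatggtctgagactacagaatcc
Krtap3-1: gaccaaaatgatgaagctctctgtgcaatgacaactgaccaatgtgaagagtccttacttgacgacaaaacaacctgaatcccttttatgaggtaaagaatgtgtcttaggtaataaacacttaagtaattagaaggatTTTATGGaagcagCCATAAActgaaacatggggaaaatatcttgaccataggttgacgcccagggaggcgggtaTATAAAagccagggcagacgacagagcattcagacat
Krt36: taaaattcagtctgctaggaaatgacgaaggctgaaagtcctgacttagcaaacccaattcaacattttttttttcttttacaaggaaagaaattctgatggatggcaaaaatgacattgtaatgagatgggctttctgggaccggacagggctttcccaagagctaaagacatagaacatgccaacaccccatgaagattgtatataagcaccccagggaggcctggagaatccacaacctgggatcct
Krt84: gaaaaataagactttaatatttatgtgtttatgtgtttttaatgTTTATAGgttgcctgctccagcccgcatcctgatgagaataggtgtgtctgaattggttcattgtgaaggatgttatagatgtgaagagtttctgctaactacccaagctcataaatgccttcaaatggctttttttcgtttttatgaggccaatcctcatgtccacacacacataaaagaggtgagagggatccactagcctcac
TATAAA on the gene's strand begins 29 bases before the start in Krt31, 31 in Krt34, 29 in Krtap8-1 and 37 in Krtap3-1. Krt36 and Krt84 have no match at that place. Krtap3-3, not shown, has none there either, though its levels followed the rest of the class closely (r = 0.976). Of the hair keratin promoters, 3 of 7 had the match 20 to 40 bases before the start. Whether the motif goes with how a gene follows the class was not tested. Over the hair class promoters, TTTATNG was found in 20.7% (10.9% of all promoters), CTTTGA in 32.8% (16.0%) and TGANTCA in 17.2% (7.81%).

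Together the members held between 1.02% and 5.85% of a library's summed FPKM, with a median of 3.64%. Depth, read from the steps of low values, was 39.8 to 54.65 M fragments. The paws also held muscle, bone and skin: Acta1 of skeletal muscle ranged from 375 to 11038 FPKM, Bglap of osteoblasts from 13.0 to 1098, and Lor of the cornified envelope from 372 to 4444. In such whole tissue, fewer cells of a type and less RNA per cell cannot be told apart. The library anti-IL-6 13 stood apart, with the lowest level of all 56 libraries in 73 of the 105 members, and it also had the highest score of 15 neutrophil genes. Several ranges and correlations are given with and without it. The labels do not say that mice of 1 group came from separate litters or cages, and p-values measure the spread between these mice.

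No member passed the test in any of 7 comparisons between groups. These were isotype against no CIA, each antibody group against isotype, the combination against each antibody alone, and the interaction of the 2 antibodies, all tested by limma on log2(FPKM + 1) with Benjamini-Hochberg adjustment at 0.05 over 14700 features. Between isotype and no CIA, 0 of 105 members passed, where 0.156% of all features did, and 3 members were lower at an unadjusted p under 0.05 (4.73% of all features were). For anti-TNF against isotype and for the combination against isotype 0 members and 0% of all features passed, and 0 members had an unadjusted p under 0.05 (5.47% and 5.78% of all features). For anti-IL-6 against isotype 0 members passed (0.952% of all features) and 0 had an unadjusted p under 0.05 (12.8%). The combination against anti-IL-6 gave 0 members (0.102% of all features) and the interaction 0 (0.116%), both with 0 at an unadjusted p under 0.05 (11.4% and 9.57%). The combination against anti-TNF gave 0 (0% of all features), with Krt18, Krt19 and Krt7 higher at an unadjusted p under 0.05 (0.367% of all features were higher).

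**Figure D1:**
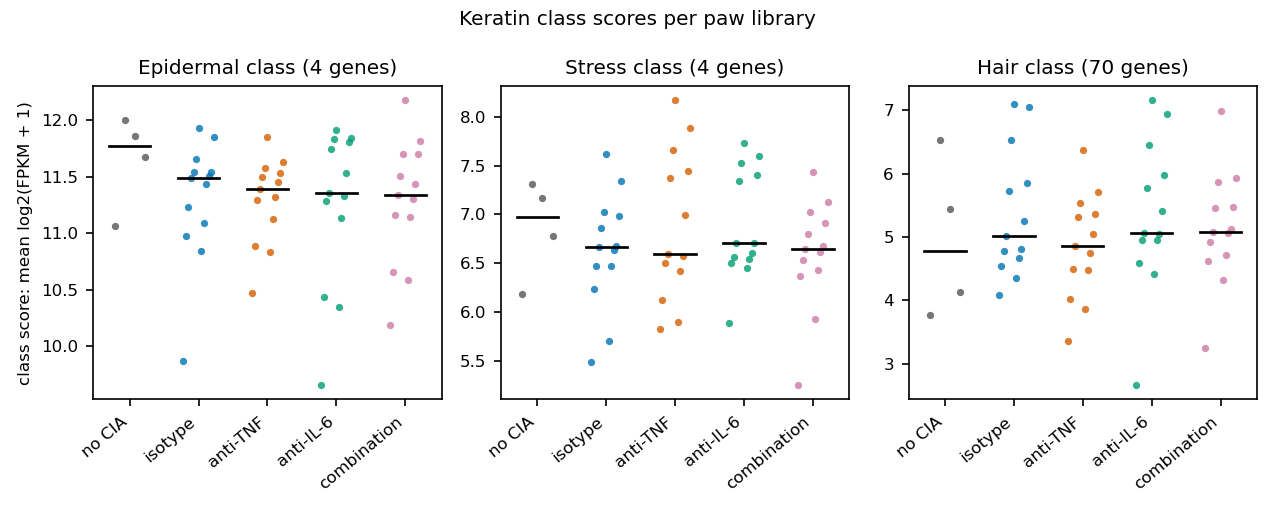
Class score (mean log2(FPKM + 1) of the class) of every library by group, with points for libraries and bars for group medians. The groups overlap in each class, and hair scores run from 2.66 to 7.16 while epidermal scores run from 9.66 to 12.17.

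The epidermal keratins were the most abundant members. Krt10, the type I keratin of suprabasal layers, had 5135, 3956, 2418 and 5406 FPKM in no CIA 1 to 4. Its lowest, median and highest values were 1102, 4129 and 5915 FPKM in isotype, 1669, 4287 and 5523 in anti-TNF, 921, 3974 and 6533 in anti-IL-6 and 1277, 3680 and 7941 in the combination. The 5 groups overlapped over most of their ranges, and the lowest library of each arthritic group lay under every no CIA library. Krt14, the type I keratin of the basal layer, had 3952, 3444, 2127 and 3052 FPKM in no CIA 1 to 4, and 1022, 2270 and 3359 (lowest, median, highest) in isotype. The median of the no CIA group was higher, 3248 FPKM, but the isotype range covered 2 of its 4 libraries. In the other arthritic groups Krt14 had medians of 2459 FPKM (anti-TNF), 2457 (anti-IL-6) and 2564 (combination), close to isotype.

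All 4 epidermal keratins were lower in isotype than in no CIA, by a median log2 difference of -0.41 against 0.03 for all features, and none passed the test. Krt1 differed by -0.46 ± 0.41 (SE), Krt14 by -0.44 ± 0.25, Krt5 by -0.37 ± 0.24 and Krt10 by -0.11 ± 0.38 on the log2 scale, with limma adjusted p-values from 0.341 upward. The 95% interval for Krt14 ran from -0.94 to 0.06. The neutrophil score was 0.932 to 1.52 in no CIA and 0.921 to 4.39 in isotype, and across libraries it ran against the epidermal score (r = -0.52 within groups, -0.46 without anti-IL-6 13). Other tissue lists differed in this comparison too. The median log2 difference of 12 tested cartilage and bone genes was 1.54, with 12 higher in isotype. That of 20 skeletal muscle genes was -0.73, with 0 higher, and that of 14 eccrine sweat gland genes was -0.50, with 1 higher. The eccrine list itself includes keratin members, such as Krt77. The part of these lists in the epidermal difference was not tested.

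The index numbers in the sample titles were cut here into 5 stretches, called index runs. They hold the numbers 39 to 44, 45 to 57, 58 to 70, 71 to 83 and 84 to 96. The numbers run on across the cuts, where the mouse number drops back, and the titles do not name the stretches as batches. The no CIA libraries were all in index run 1, with only 2 isotype libraries, 4 and 7. Those 2 libraries had 1022 and 1725 FPKM of Krt14 and 48.6 and 121 FPKM of Krt9, under every no CIA library. With index run as a covariate, 9 members were lower in isotype than in no CIA, where 4.67% of all features were (18.7% in either direction): Krt1, Krt5, Krt14, Krt15, Krt78, Krt9, Krt8, Krt18 and Krt19. Krt9 then differed by -2.74 ± 0.686 (limma adjusted p = 0.0181), Krt1 by -1.63 ± 0.596 (0.0481) and Krt14 by -1.21 ± 0.359 (0.0254) on the log2 scale. These calls rest on 2 isotype libraries, and index run and arthritis cannot be told apart beyond them.

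No epidermal keratin passed the test between an antibody group and isotype. Krt14 differed by 0.06 ± 0.17 under anti-TNF (95% interval -0.28 to 0.41), by 0.03 ± 0.17 under anti-IL-6 (-0.32 to 0.37) and by 0.06 ± 0.17 under the combination (-0.29 to 0.40) on the log2 scale. Krt5, its type II partner, differed by 0.03, 0.02 and 0.01, each ± 0.17. The suprabasal pair was below isotype in all 3 groups, Krt10 by -0.07, -0.17 and -0.12, each ± 0.26, and Krt1 by -0.06, -0.11 and -0.03, each ± 0.28. The class medians were -0.01, -0.05 and -0.01, each with 2 genes above and 2 below 0. Leaving out 1 library at a time moved them between -0.16 and 0.10, and their sign changed in 12, 5 and 13 of 26 cases. With index run as a covariate the medians were -0.21, -0.06 and -0.10, with all 4 genes below 0 in each group.

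Several keratins outside the 3 classes are also made in the epidermis and its ducts. Krt2, a late suprabasal keratin of thick skin, had a median of 1972 FPKM over all libraries (587 to 3415), Krt15 of basal cells 662 (335 to 1044), Krt24 443 (84.95 to 881) and Krt79 of the hair canal and sebaceous duct 249 (73.7 to 461). Krt9, the keratin of palms and soles, had 648, 402, 342 and 808 FPKM in no CIA 1 to 4. Its lowest, median and highest values were 48.6, 238 and 518 FPKM in isotype, 108, 245 and 582 in anti-TNF, 73.2, 360 and 698 in anti-IL-6 and 132, 350 and 841 in the combination. Isotype overlapped the no CIA range only in its upper libraries, and the difference of -1.15 ± 0.478 (log2) missed the threshold (limma adjusted p = 0.268). Krt8 and Krt18, the pair of simple and glandular epithelia, differed by -0.63 ± 0.31 and -0.61 ± 0.30 in the same comparison, at means of 5.13 and 6.30 FPKM in isotype against 8.08 and 9.98 in no CIA.

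**Figure D2:**
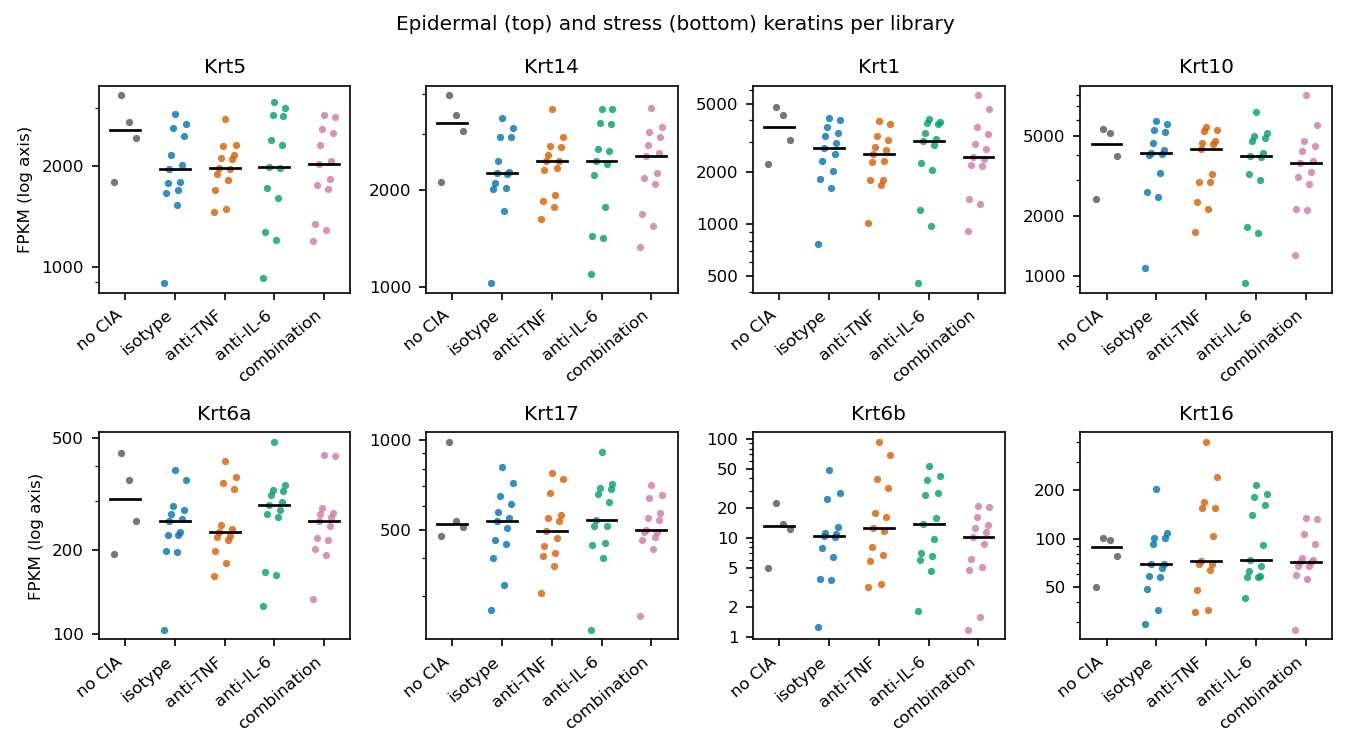
FPKM on log axes of the 4 epidermal keratins (top) and the 4 stress keratins (bottom) in every library, by group, with bars for medians. Krt6b spans 1.17 to 93.4 FPKM and Krt16 26.7 to 403, with the highest libraries in anti-TNF, while Krt6a and Krt17 stay within narrower ranges.

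The stress keratins split by size and by spread. Krt17 was the most abundant, at 984, 532, 476 and 508 FPKM in no CIA 1 to 4 and at medians of 532 (isotype), 495 (anti-TNF), 538 (anti-IL-6) and 499 (combination). Krt6a, a type II partner of Krt16 and Krt17, had medians of 304 FPKM in no CIA, 253 in isotype, 232 in anti-TNF, 288 in anti-IL-6 and 254 in the combination. The ranges of both genes overlapped in all groups.

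Krt16, a keratin of wound edges and psoriatic plaques, had 98.0, 78.2, 49.4 and 101 FPKM in no CIA 1 to 4. Its lowest, median and highest values were 29.3, 69.3 and 205 FPKM in isotype, 34.8, 72.4 and 403 in anti-TNF, 42.4, 73.8 and 216 in anti-IL-6 and 26.7, 71.2 and 134 in the combination. The medians of the arthritic groups lay within a few FPKM of each other, and the group means differed through a few high libraries. Krt6b had 22.4 FPKM at most in no CIA, with medians of 10.4 in isotype, 12.6 in anti-TNF, 13.8 in anti-IL-6 and 10.1 in the combination, and its highest library, anti-TNF 12 with 93.4 FPKM, was also the highest for Krt16.

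On the log2 scale Krt16 differed from isotype by 0.43 ± 0.31 under anti-TNF (limma adjusted p = 0.973) and 0.39 ± 0.31 under anti-IL-6 (0.625), and by 0.06 ± 0.31 under the combination. Krt6b differed by 0.54 ± 0.48, 0.41 ± 0.48 and -0.27 ± 0.48. The interaction of the antibodies was -0.76 ± 0.43 for Krt16 (limma adjusted p = 0.562) and -1.22 ± 0.672 for Krt6b (0.554), so neither passed. The class median was 0.24 under anti-TNF with 3 of 4 genes above 0, but 0.13 without anti-TNF 12 and 0.09 with index run as a covariate. Under anti-IL-6 it was 0.26 with 4 of 4 genes above 0, and 0.07 with a skeletal muscle score as a covariate. Under the combination it was 0.03. Between isotype and no CIA all 4 stress keratins were lower, by a median of -0.24, which was -0.08 without no CIA 1 and -0.81 with index run as a covariate.

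The hair class held the members that varied most between mice. Krt31, a type I keratin of the hair cortex, had 329.6, 156, 72.4 and 193 FPKM in no CIA 1 to 4. Its lowest, median and highest values were 58.5, 158 and 522 FPKM in isotype, 31.9, 138 and 254 in anti-TNF, 20.5, 182 and 470 in anti-IL-6 and 22.5, 131 and 476 in the combination. The range of each group covered the medians of the other 4.

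Krtap7-1, a small glycine- and tyrosine-rich matrix protein and the most abundant Krtap gene, had 950, 212, 165 and 419 FPKM in no CIA 1 to 4. It ran from 137 to 1260 FPKM in isotype (median 367), 95.5 to 900 in anti-TNF (227), 61.3 to 1238 in anti-IL-6 (388) and 65.1 to 1190 in the combination (336). Its lowest library was again anti-IL-6 13. The other 4 most abundant Krtap genes had means of 401 (Krtap8-1), 209 (Krtap3-1), 206 (Krtap3-3) and 189 FPKM (Krtap11-1).

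Most of the hair keratins lay within a few-fold of each other. Of the type I genes, mean FPKM over all libraries was 180 for Krt31, 165 for Krt33a, 156 for Krt34, 146 for Krt33b, 129 for Krt35, 71.4 for Krt36 and 49.1 for Krt32. Of their type II partners it was 179 for Krt81, 169 for Krt83, 149 for Krt86, 25.4 for Krt84 and 21.0 for Krt82. Some copies share sequence: 30.4% of the 75-base stretches of Krt81 are also in Krt86 and 39.1% of those of Krtap3-3 in Krtap3-2, so their split is uncertain. The same holds for Krt6b, of which 36.9% is in Krt6a. Krt6a shares 37.5% and Krt16 28.9% of such stretches with other genes. The highest share in the hair class is that of Krtap4-13, at 70.9% with Gm11554. In the hair class 29 of 70 members share no such stretch with another gene.

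Across the 67 hair class members above 0 in every library, the highest library held a median of 39.3 times the FPKM of the lowest, against 6.24 times for the epidermal class. Without anti-IL-6 13 these were 26.2 times, over 68 members, and 5.53 times. Summed over the class, hair FPKM ran from 644 to 16625, a 25.8-fold range, or 18.0-fold without anti-IL-6 13. The within-group SD of log2(FPKM + 1) had a median of 1.06 over the 70 members, against 0.557 for the epidermal class, 0.632 for the stress class and 0.219 for all features tested. Of the 70 members, 68 were among the 5% of tested features with the highest SD. Groups accounted for a median of 4.00% of the variance of a hair class member, against 9.45% for all features.

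High and low hair libraries came from every group. The 5 highest scores were in anti-IL-6 4 (7.16), isotype 3 (7.10), isotype 7 (7.05), combination 5 (6.98) and anti-IL-6 6 (6.94), and the 5 lowest in anti-IL-6 13 (2.66), combination 7 (3.25), anti-TNF 9 (3.35), no CIA 3 (3.77) and anti-TNF 13 (3.87). Of the 14 libraries with the highest scores, 1 was no CIA, 4 isotype, 1 anti-TNF, 5 anti-IL-6 and 3 combination. Of the 14 with the lowest scores, 2 were no CIA, 3 isotype, 5 anti-TNF, 2 anti-IL-6 and 2 combination.

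**Figure D3:**
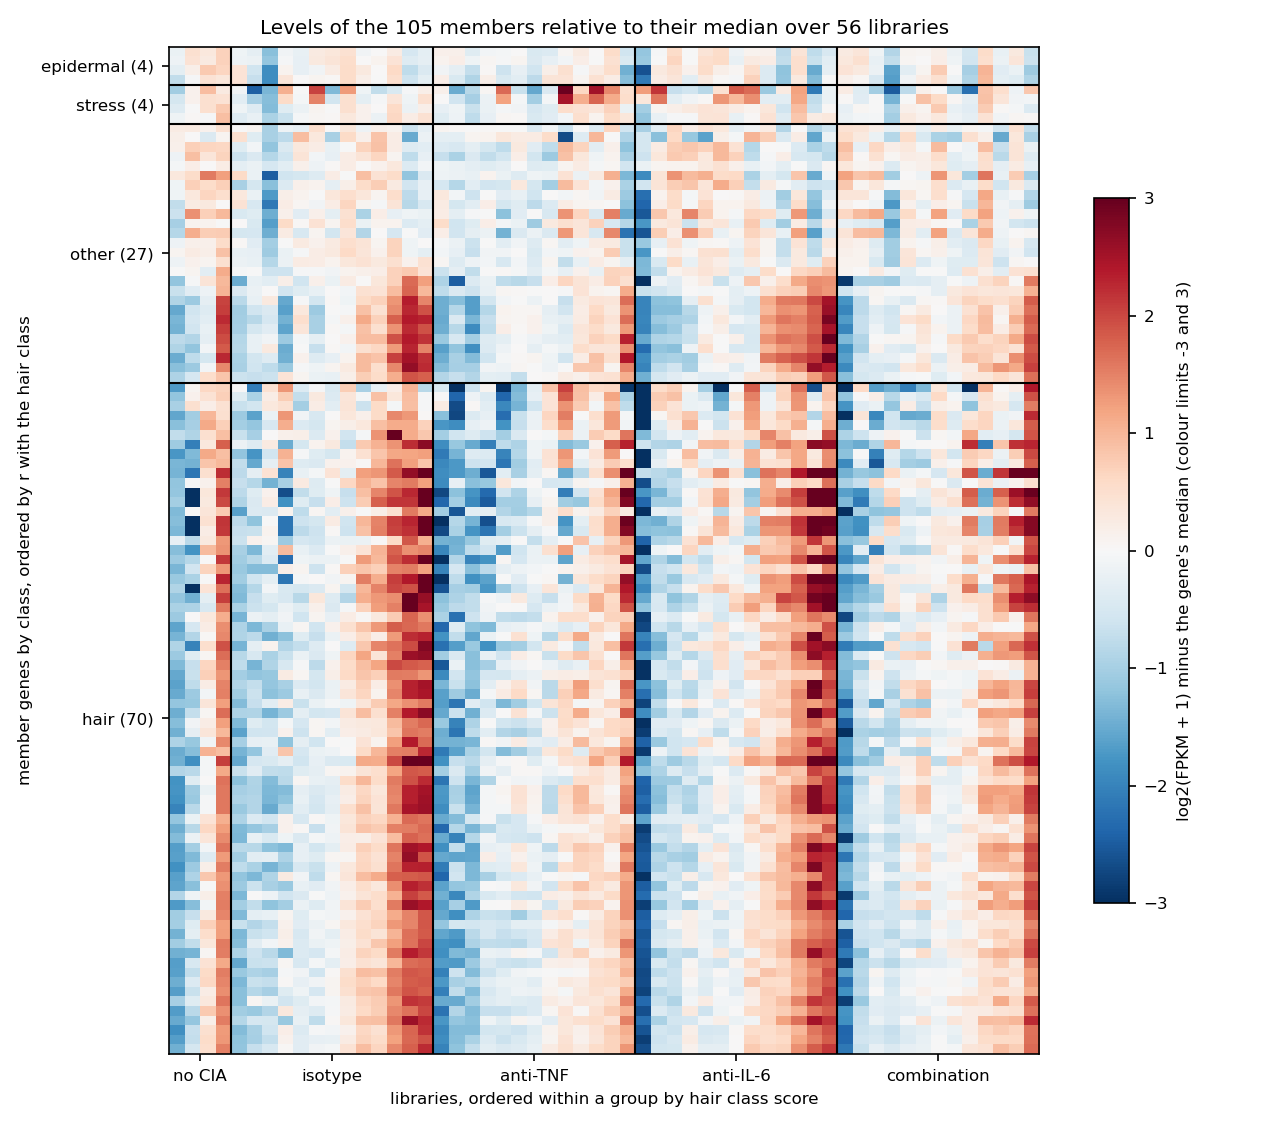
Heat map of log2(FPKM + 1) minus each gene's median, for 105 members (rows by class, ordered by correlation with the hair class) and 56 libraries (columns by group, ordered by hair score). Hair class genes and a block of the other keratins rise and fall together within every group, and the column of anti-IL-6 13, at the left of its group, is below the median in most rows.

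Group differences in the hair class did not stand out from this spread. All 70 members were lower under anti-TNF than under isotype, with a median log2 difference of -0.48 and a median SE of 0.41, and the smallest limma adjusted p was 0.941. Because the members move together, these 70 directions are not independent counts. Krt31 differed by -0.40 ± 0.37 (95% interval -1.15 to 0.34), Krtap7-1 by -0.58 ± 0.38 (-1.34 to 0.19) and Krtap19-4, the largest difference, by -1.08 ± 0.639 (-2.36 to 0.20). Leaving out 1 library moved the class median between -0.58 and -0.34. Within index runs 3 and 5, the median hair scores were 4.87 and 5.18 under anti-TNF and 5.37 and 5.26 under isotype.

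Under the combination 59 of 70 members were below isotype (median -0.27), and under anti-IL-6 47 of 70 were (median -0.03). For anti-IL-6 the direction did not hold: without anti-IL-6 13 the median was 0.20 with 66 members above 0, and with index run as a covariate it was 0.11 with 58 above 0. It was -0.19 without anti-IL-6 6, with 62 members below 0, and -0.19 with a skeletal muscle score as a covariate, with 60 below 0. With index run as a covariate the combination had 44 members below 0. Between isotype and no CIA 67 of 70 members were higher (median 0.36), but without no CIA 3 the median was -0.08 and without no CIA 1 it was 0.87. In index run 1 the hair scores of the 2 isotype libraries were 4.54 and 7.05, and those of no CIA ran from 3.77 to 6.54.

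**Figure D4:**
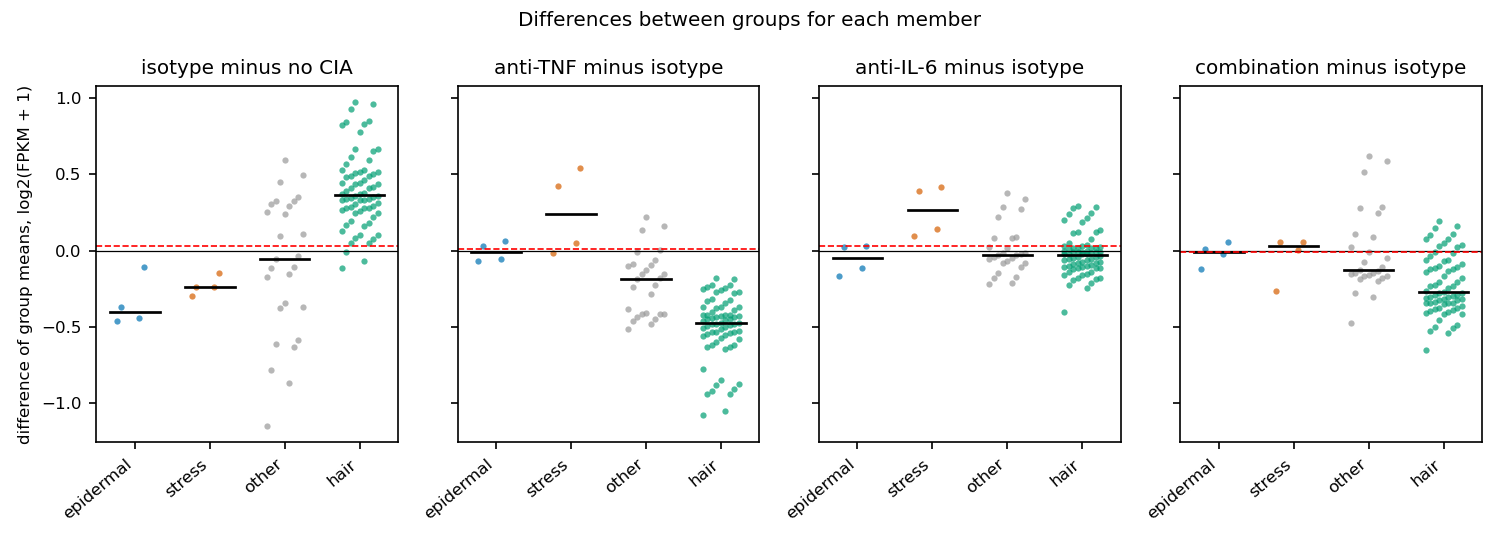
Difference of group means on log2(FPKM + 1) for each member (points, by class), with black bars for class medians and a red dashed line for the median of all 14700 features, in 4 comparisons. Hair class members lie below 0 under anti-TNF (median -0.48) and around 0 under anti-IL-6 (-0.03), and no member passed the test.

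Within groups, the hair class moved nearly as a unit. After subtracting group means from log2(FPKM + 1), 50 of 70 members correlated with the mean of the rest of the class at r of 0.9 or above over the 56 libraries, 62 at 0.8 or above and 69 at 0.5 or above. Without anti-IL-6 13 these were 49, 61 and 67. These points share a library and its depth, and the values are descriptions. Over all 2415 pairs the median r was 0.844, with 0.866 for genes on the same chromosome and 0.834 for genes on different chromosomes. The 3 Krtap3 genes had r of 0.959 to 0.976 with the class, the 8 Krtap4 genes 0.837 to 0.969, and the 7 Krtap19 genes, of glycine- and tyrosine-rich proteins, 0.777 to 0.906.

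Of the keratins outside the 3 classes, 10 also had r of 0.9 or above with the hair class. They include Krt71, Krt25, Krt27, Krt28, Krt72, Krt73, Krt74 and Krt26, the keratins of the inner root sheath that moulds the growing hair, and Krt39 and Krt40. Krt71 had 434.5, 66.8, 34.8 and 77.7 FPKM in no CIA 1 to 4 and medians of 101 in isotype, 105 in anti-TNF, 91.5 in anti-IL-6 and 107 in the combination, so that 1 no CIA library was high and the groups overlapped. With its type I partner Krt25 it correlated at r = 0.997, at a ratio of 0.982 to 1.36 in FPKM. Krt75 of the companion layer had r = 0.73 and Krt87 r = 0.88 with the hair class.

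Krt36, Krt84 and Krtap13 departed from the rest of the class, a set picked out after its values were seen. Their r with the hair class was 0.52, 0.52 and 0.36, and 0.41, 0.42 and 0.27 without anti-IL-6 13. Among themselves it was 0.96 (Krt36 with Krt84), 0.86 (Krt36 with Krtap13) and 0.89 (Krt84 with Krtap13), and 0.95, 0.84 and 0.88 without that library. Krt36 had 90.3, 92.6, 33.4 and 75.5 FPKM in no CIA 1 to 4, and ran from 32.2 to 124 in isotype (median 64.6), 9.50 to 170 in anti-TNF (62.7), 5.14 to 168 in anti-IL-6 (71.3) and 18.7 to 195 in the combination (57.8).

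**Figure D5:**
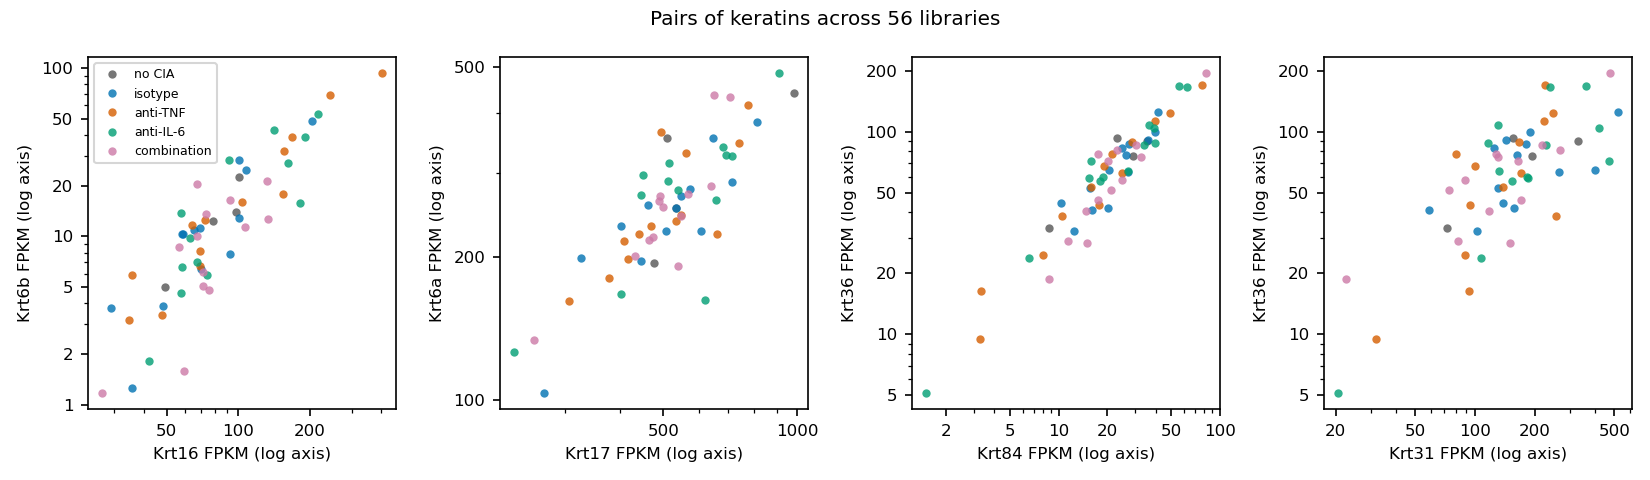
FPKM of 4 pairs of keratins on log axes, 1 point per library, coloured by group. Krt6b follows Krt16 and Krt36 follows Krt84 (r = 0.88 and 0.96 within groups), Krt6a follows Krt17 (0.82), and Krt36 is more scattered against Krt31.

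Epidermal and hair classes varied apart from each other. Their scores correlated at r = 0.05 within groups (Spearman -0.01), while epidermal and stress scores correlated at 0.62 and stress and hair scores at 0.28. Without anti-IL-6 13 these were -0.14, 0.65 and 0.27. Partner keratins stayed close: Krt5 with Krt14 at r = 0.985, with a ratio of 0.737 to 0.948 in FPKM, Krt1 with Krt10 at 0.965 (ratio 0.489 to 0.932), and Krt8 with Krt18 at 0.967. Krt42 with Krt90 had r = 0.985.

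The stress class held 2 closely linked pairs. Krt6b and Krt16 correlated at r = 0.88, and each with the score of 20 measured skin alarmin genes (S100a8, S100a9, Sprr1b and others) at 0.62 and 0.70. S100a8 and S100a9 are also in the neutrophil list, with whose score Krt6b and Krt16 had r of 0.13 and 0.06. Both also ran against the skeletal muscle score, Krt6b at r = -0.55 and Krt16 at -0.55, where Krt6a had -0.16 and Krt17 -0.23. With the epidermal class Krt6b had r = 0.37 and Krt16 0.51. Krt6a and Krt17 correlated at r = 0.82, and with the alarmin score at 0.10 and -0.02. Krt6a had r = 0.85 with the epidermal class, and Krt17 had r = 0.60 with the epidermal and 0.63 with the hair class, or 0.83, 0.51 and 0.56 without anti-IL-6 13. Across pairs the values were lower, 0.64 for Krt6a with Krt16, 0.45 for Krt6a with Krt6b, 0.43 for Krt16 with Krt17 and 0.21 for Krt6b with Krt17.

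Skin genes of other lists varied with the keratin classes. Each r is that of a list's mean score and not of the genes in brackets, which are its most abundant, with their mean FPKM. The epidermal score correlated at r = 0.96 with cornified envelope genes (led by Lgals7, Lor and Flg at means of 2079, 2047 and 1685 FPKM) and at 0.97 with desmosome and basal attachment genes (Perp 681, Pkp1 241, Jup 226). The hair score correlated at 0.96 with hair shaft and root sheath genes (Lgals3 638, S100a3 492, Ctsl 167), at 0.88 with hair follicle and claw regulators (Dlx3 34.8, Ovol1 28.3, Cux1 27.7) and at 0.74 with melanocyte genes (Dct 6.09, Sox10 6.04, Mlana 5.40), though Tyr, the pigment enzyme, stayed between 0.0445 and 0.801 FPKM. Its r was -0.22 with skeletal muscle genes (Acta1 3581, Tnnt3 3025, Tnnc2 2146), 0.04 with cartilage and bone genes (Comp 368, Bglap 359, Ctsk 286) and -0.03 with neutrophil genes (S100a9 345, S100a8 168, Mmp9 51.4). Without anti-IL-6 13 these 6 values of the hair score were 0.95, 0.86, 0.72, -0.30, 0.03 and 0.09. The epidermal score had r of 0.84 with epidermal regulators (Sfn 512, Klf4 115, Tfap2c 41.0) and 0.78 with sebaceous gland genes (Krt79 252, Elovl4 218, Mgst1 124). With eccrine sweat gland genes (Krt77 64.8, Aqp5 56.4, Atp6v1b1 12.9), of which several are keratins, it had r of 0.75. Krt79 is itself a member, with r = 0.91 with the epidermal class, so these last 2 values partly set keratins against keratins.

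No gene of these other lists passed the test either. Of the 182 tested genes in these 12 lists that are not members, 0 passed limma's test in each of the 7 comparisons. At an unadjusted p under 0.05 there were 25 between isotype and no CIA (13.7%, against 16.7% of all features). Against isotype there were 3 for anti-TNF (1.65%, against 5.47%), 5 for anti-IL-6 (2.75%, against 12.8%) and 7 for the combination (3.85%, against 5.78%). The combination had 2 against anti-TNF (1.10%, against 1.09%) and 7 against anti-IL-6 (3.85%, against 11.4%), and the interaction had 6 (3.30%, against 9.57%). Pooled over the lists, each share lay near or under that of all features. Single lists differed between isotype and no CIA. At limma's unadjusted p under 0.05 were 8 of 12 tested cartilage and bone genes and 7 of 15 neutrophil genes. Of the skin alarmin genes 4 of 17 were, and of the eccrine sweat gland genes, keratin members included, 4 of 14. The hair shaft and root sheath, sebaceous gland and skeletal muscle lists had 0.

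The tested genes most like each class, by Pearson r with its score within groups over 56 libraries, were as follows. For the epidermal class they were Teddm3 (0.979), Aqp3 (0.976), Gm6551 (0.973), Slurp2 (0.972), Acer1 (0.971), Spink5 (0.971), Dusp22 (0.970) and Tmem79 (0.970). Aqp3, the glycerol channel of keratinocytes, ranged from 63.8 to 312 FPKM. For the hair class they were Gm11562 (0.982), Gm11938 (0.972), Gprc5d (0.969), Csdc2 (0.964), Psors1c2 (0.962), Gm3238 (0.960), Gm9736 (0.956) and Vsig8 (0.953). Of the stretches compared above for shared sequence, 35.1% of those of Krtap2-4, a hair class member, are also in Gm11562. The split of fragments between these genes, and so the r of Gm11562, is uncertain. Gprc5d, a receptor of hair-forming cells, ranged from 5.10 to 148 FPKM. For the stress class r was lower, from 0.838 for Urah to 0.786 for Gsdmc, with Cdkn2b, Mall, Abhd17c, Rangap1, Ywhaz and Tdh between.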

How the data were processed

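The deposited table holds FPKM for 1 column per library, which is inferred from the numbers themselves because the file has no statement of it. Not given in the sources used here are the authors' aligner, genome build, annotation and use of strand. DESeq2 is listed, with no version, in the submitters' processing notes. Per the labels' protocols, RNA was isolated with a Qiagen kit, made into TruSeq Stranded mRNA libraries and sequenced paired-end on a NovaSeq system, with 80 M raw reads planned per library. FPKM is relative, so a gene's value also moves with the share of RNA from other tissues.

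Features with a mean of at least 1 FPKM in any group (14700) were tested on log2(FPKM + 1) with limma 3.58.1 in R 4.3.3, with trended and robust moderation, in 1 fit over 56 libraries with 51 residual degrees of freedom. P-values are two-sided. The log2(FPKM + 1) scale understates changes of low genes. Depth was estimated from steps in the low values of single-exon genes of at least 400 bases, where 76.2% to 83.1% of values were whole at a tolerance of 0.05 of a step, so counts were not rebuilt. Class and list scores are means of log2(FPKM + 1). Python 3.11.15 with numpy 2.4.6, pandas 2.3.3 and matplotlib 3.10.9 did the rest.

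The members, the 17 lists and the tests were chosen with earlier results of these data known. Named are all epidermal, stress and hair keratin members, the 5 most abundant Krtap genes, the 6 most abundant other keratins, members near the minimum, the 3 most abundant genes of each list and the 8 genes most like each class. Krt7, Krt8, Krt18, Krt19, Krt25, Krt39, Krt40, Krt42, Krt71, Krt75, Krt78, Krt87, Krt90, Krtap13, Krtap19-4 and the other inner root sheath keratins were added after their values were seen. No 2 libraries were identical, and the highest correlation between libraries was 0.997. Alternatives were other pseudocounts, no filter, median of ratios scaling, fits without the groups not compared, index run or a muscle score as covariate, and leaving out libraries.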

Additional observations from a re-analysis of the deposited data

Results flagged for a closer look

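In the no CIA group of 4, the stress keratin Krt17 was far higher in no CIA 1 than in the others, at 9.94 on log2(FPKM + 1), or 984 FPKM, with the nearest library at 9.06 (gap over range 0.847, past Dixon's 95% critical value for 4 samples). Krt2, a suprabasal keratin, was far lower in no CIA 3, at 9.95, or 990 FPKM, with the nearest library at 10.94 (gap over range 0.892). Chance flags about 1 group in 20, and 34 sets of values were screened. Counted from the lowest of 56 libraries, no CIA 1 ranked 51 in hair class score and no CIA 3 ranked 4.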

How the results depend on the processing

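The count of members past the threshold stayed at 0 in all 7 comparisons under pseudocounts of 0.1 and 10, no filter, median of ratios scaling, fits of the compared groups alone, a muscle score as covariate, and without anti-IL-6 replicate 2 and anti-TNF replicate 6, whose mouse numbers fall among the other group's. The exception was index run as a covariate, which gave 9 members lower in isotype than in no CIA and 18.7% of all features called, against 0.156% without it. Leaving out each library in turn gave 0 in every comparison, with lowest limma adjusted p-values from 0.202 (isotype against no CIA) to 0.814 (combination against anti-TNF). The differences of class scores moved by less than the isotype SD under the pseudocounts, the scaling, and without each no CIA library. The last was chosen after seeing the data. That SD was 0.536 (epidermal), 0.592 (stress) and 1.01 (hair). It is wider than the differences themselves, as for hair, with medians of 5.01 in isotype and 4.78 in no CIA. The check therefore cannot show that a direction held. For hair it did not: the median of member differences was -0.08 without no CIA 3 and 0.87 without no CIA 1. With index run as a covariate, the medians of member differences between isotype and no CIA moved from -0.41 to -1.23 (epidermal), from -0.24 to -0.81 (stress) and from 0.36 to 0.73 (hair). No paired analysis was possible because the labels pair no mice between groups and replicate numbers follow deposition order. With 4 no CIA libraries, the 95% interval for Krt31 against isotype was -1.04 to 1.13 on the log2 scale, so differences of that size were not detectable.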
